A study of Homo sapiens with 12 samples.

Results

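The comparison was between cultures of HK-2 cells that had been exposed to the treatment named Fk for 48 h and cultures exposed to it for 12 h. HK-2 is an immortalized human cell line that came from the proximal tubule, the stretch of the nephron that reabsorbs most filtered solute. All arrays titled Fk at either time were taken, 3 at 48 h and 3 at 12 h, which made 6 of the 12 arrays of the series. The other arrays came from cultures given the control vehicle, 3 at each time, and were used to show the change that time alone brought. The labels do not expand the name Fk, and no dose was used here.

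Every culture, treated or control, was the same cell line in the same medium, a mix of DMEM and Ham's F12 with 5 mM glucose, EGF, hydrocortisone, insulin, transferrin and selenite. Cells were seeded 24 h before treatment, and treatment began near 90% confluency. The labels do not say whether the medium was renewed before 48 h. The 3 arrays of each group are labelled as biological replicates, and what separates them is not named, so p-values measure the spread between these samples.

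Of 12 defining markers of the proximal tubule in the body, DPP4, a brush border peptidase, alone reached the level of 4 (log2) used for testing on at least 3 arrays, and its Fk means were 11.17 at 12 h and 11.59 at 48 h. The endocytic receptors LRP2 and CUBN, the phosphate transporter SLC34A1 and the water channel AQP1 stayed under that level on all 12 arrays. All 6 epithelial markers were at level, among them EPCAM at 12.77 and 12.98. Of 7 fibroblast and pericyte markers 5 were at level, COL1A1, DCN, LUM, ACTA2 and RGS5, while the receptors PDGFRA and PDGFRB were under it. The summed level of these 7 (log2 of the sum of their linear values) ran from 11.49 to 11.62 at 12 h and from 11.16 to 11.63 at 48 h. None of 4 blood cell markers with a value was at level. Of 8 loop, distal and collecting duct markers with a value 3 were at level, SCNN1A, AQP2 and AQP3. Of 4 podocyte markers with a value 2 were at level, PODXL and SYNPO, and of 5 endothelial markers 1, PECAM1.

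The arrays did not spread evenly. Replicate 3 of Fk at 12 h stood apart on the second principal component (score 66.4, 19.4% of the variance), with 569 genes more than 1 log2 unit above and 1091 as far below the mean of the other Fk arrays at 12 h. On that array a control probe set for 28S ribosomal RNA read 14.38, and elsewhere 8.50 to 10.29. At 48 h the 3 Fk arrays lay at 56.1, 34.3 and 13.3 on the first component (55.4% of the variance), on which all arrays at 12 h lay between -36.0 and -30.6. Replicate 3 at 48 h therefore lay nearest to the 12 h arrays and replicate 1 farthest, and the control arrays at 48 h were spread in the same way, at 51.2, 36.4 and 10.2. Results are given with all arrays and, where it matters, without replicate 3 at 12 h or another single array.

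The gene groups described below follow a few known programmes. To divide, a cell first switches on E2F target genes, which make the licensing factors, polymerases and nucleotides for DNA replication, and later a set of mitotic genes under the DREAM and B-MYB complexes. Short supply of amino acids, or unfolded protein in the endoplasmic reticulum, activates kinases whose output is the transcription factor ATF4, while the sensors ERN1 (IRE1) and ATF6 raise chaperones of that compartment. TXNIP, which restrains glucose uptake, is transcribed when glucose metabolites activate MondoA or ChREBP at a carbohydrate response element.

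Of 10784 genes tested, 2500 (23.2%) passed an adjusted p of 0.05 between Fk at 48 h and Fk at 12 h, 1240 higher (11.5%) and 1260 lower (11.7%) at 48 h. Changes of at least 1 log2 unit were seen in 567 of the higher and 505 of the lower genes, and changes of at least 2 units in 88 and 60. Without replicate 3 at 12 h, 2787 genes passed (25.8%), 1347 higher and 1440 lower. The sets shared 2050 genes, 82% of those that passed with all arrays, while 450 passed with it alone and 737 without it alone, and none of the 2500 changed direction. The count fell to 1297 without replicate 1 at 48 h and to 1422 without replicate 2 at 48 h, and it was 831 when the Fk arrays were fitted without the control arrays. The arrays of both times did not overlap for 38.7% of all genes tested. The shares of 11.5% higher and 11.7% lower are the background for the counts below. The median half-width of the 95% interval of a gene's change was 0.447 log2 units.

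**Figure D1:**
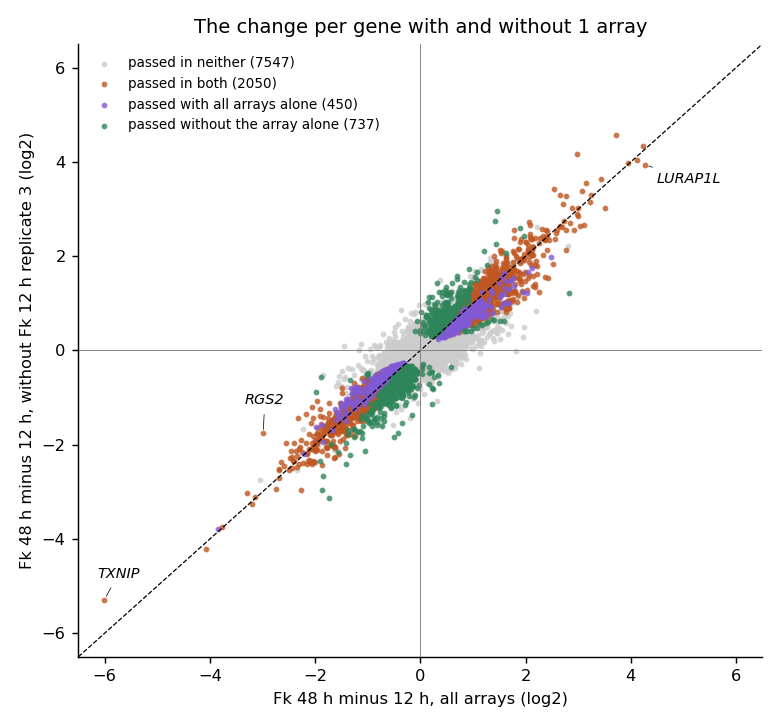
Change of each gene tested in Fk cultures, 48 h minus 12 h (log2), with all 6 arrays on the horizontal axis and without replicate 3 at 12 h on the vertical axis. Each point is 1 gene, colours mark in which of the fits its adjusted p was under 0.05, and the dashed line marks equal values. Most of the 2050 genes that passed in both lie near the line, and RGS2, which is one of them, lies off it, at -2.99 and -1.75.

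Control cultures changed over the same span, with 2314 genes past the threshold (21.5%), and 3438 without the outlying Fk array, which also enters the shared estimate of spread. Of the 2500 genes of the Fk comparison, 2471 (98.8%) had the same sign in control cultures and 1575 (63%) passed there too, all in the same direction. Over all genes tested, the changes in Fk and in control cultures had a Pearson correlation of 0.839 and a Spearman correlation of 0.814 across genes, which are not independent replicates. The comparisons share no array. At 48 h, replicates 1 of Fk and control deviated from their group means together (r = 0.798 over genes), and so did replicates 3 (r = 0.606), so the spread at 48 h is in part the same in both treatments. The difference between the time changes passed for none of the genes in limma, with 357 (3.31%) at an unadjusted p under 0.05, and for none without replicate 3 at 12 h, with 474 (4.4%).

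**Figure D2:**
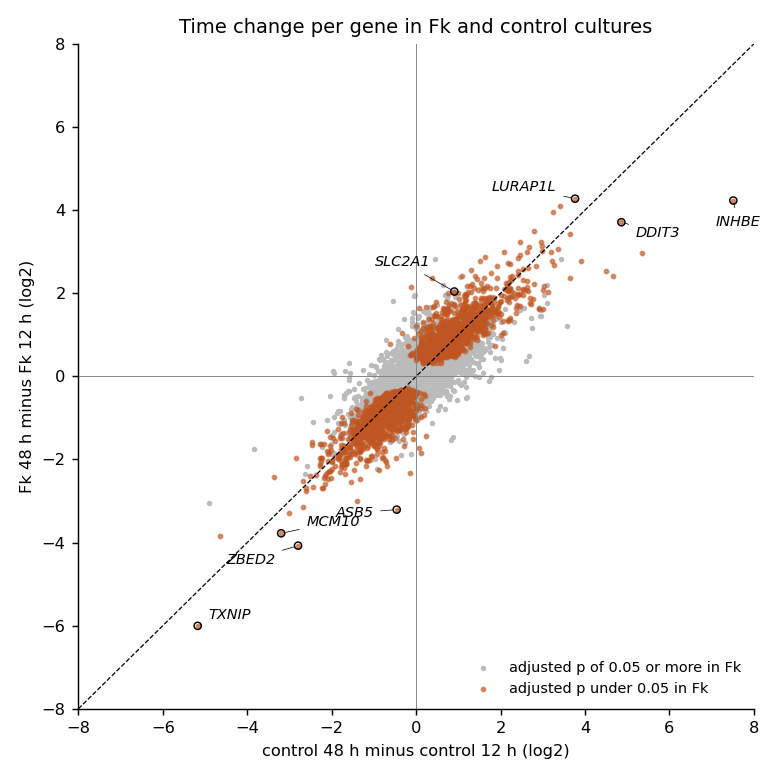
Change per gene from 12 h to 48 h in Fk cultures (vertical axis, log2) against control cultures (horizontal axis, log2). Each point is 1 of the 10784 genes tested, orange where the Fk change had an adjusted p under 0.05, and the dashed line marks equal changes. Most points follow the line, TXNIP lies at the lower end with -6.00 in Fk, and INHBE and ASB5 lie far from it, at +4.23 in Fk against +7.52 in control and at -3.21 against -0.46.

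The 10 largest rises were taken among genes that passed with and without replicate 3 at 12 h and whose arrays did not overlap. Of these, 5 were members of the lists for ATF4 or the unfolded protein response, namely DDIT3, INHBE, STC2, ERN1 and CRELD1. The lists held 33 and 24 of the 10784 genes tested. They were drawn up with earlier results of these data known, so this count is not independent support. DDIT3, which encodes the transcription factor CHOP, read 9.30, 8.49 and 11.46 at 12 h and 13.78, 13.68 and 12.92 at 48 h. The rise was +3.71 ± 0.63 (log2, SE, n = 3 per group; adjusted p = 0.00367), or 13.1-fold. Among the 12 h arrays of DDIT3 replicate 3 was the highest. INHBE, a hormone subunit gene of the TGF-beta superfamily, read 8.18, 6.34 and 7.60 at 12 h and 12.05, 11.65 and 11.11 at 48 h, a rise of +4.23 ± 0.65 (adjusted p = 0.00241). INHBE rose more in control cultures, by +7.52, and the difference between the time changes did not pass. All tested members of both lists, these 5 genes included, had a positive change in control cultures, so their rises are not particular to Fk. ERN1, the sensor that splices XBP1 mRNA, rose from 6.53, 6.01 and 6.90 to 10.28, 10.12 and 9.33 (+3.43 ± 0.37, adjusted p = 6.12e-04). The other probe sets of ERN1 were dim, and their means moved by +0.98 and 0.01. STC2, a secreted glycoprotein gene, rose from 6.58, 5.22 and 7.12 to 9.04, 9.68 and 9.64 (+3.14 ± 0.45, adjusted p = 0.0017), with +2.96 on its other probe set.

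ERO1B, an oxidase that helps form disulfide bonds, read 2.79, 3.30 and 2.83 at 12 h and 8.47, 7.34 and 5.43 at 48 h. CRELD1, a membrane protein gene with EGF-like domains, read 2.80, 2.53 and 2.77 and then 8.58, 6.36 and 5.00. Both were under the level of 4 on every 12 h array, so the sizes of their rises, +4.11 ± 0.96 and +3.95 ± 0.99, are taken against signals not shown to be above background. In both, replicate 1 at 48 h was highest and replicate 3 lowest, and without replicate 1 neither passed (adjusted p = 0.0568 for ERO1B and 0.0673 for CRELD1).

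The largest rise of all was that of LURAP1L, a leucine rich adaptor gene, from 5.68, 5.27 and 4.45 to 9.89, 9.16 and 9.19 (+4.28 ± 0.43, adjusted p = 4.46e-04). CAMTA2, a calmodulin-binding transcription activator, rose from 6.22, 4.62 and 3.95 to 9.50, 8.50 and 7.32 (+3.51 ± 0.72, adjusted p = 0.00813). PELI2, a ubiquitin ligase of innate immune signalling, read 3.78, 3.998 and 3.65 at 12 h and 7.00, 7.00 and 7.11 at 48 h. Its 12 h arrays were all below the level of 4, which leaves the starting point of the rise of +3.23 ± 0.25 (adjusted p = 9.54e-05) unmeasured. The long noncoding RNA ZFHX4-AS1 rose by +3.24 ± 0.54 (adjusted p = 0.00335) from 12 h arrays that were under that level too, at most 3.96, and by +1.62 on its other probe set. The control cultures showed rises of +3.77 for LURAP1L, +2.80 for CAMTA2, +2.95 for PELI2 and +2.45 for ZFHX4-AS1, each past the threshold there.

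The deepest fall was that of TXNIP, from 9.59, 9.32 and 11.61 at 12 h to 5.22, 3.93 and 3.35 at 48 h. The change was -6.00 ± 0.60 (adjusted p = 4.29e-04), and 2 of the 48 h arrays were under the level of 4, so its full size is not measured. It was -5.29 without replicate 3 at 12 h, on which TXNIP was highest. The other probe sets of TXNIP gave -5.68 and -6.31. TXNIP fell in control cultures too, with a change of -5.17. ZBED2, a zinc finger gene, read 7.28, 7.29 and 6.86 and then 2.65, 3.01 and 3.55, all of the latter under the level of 4 (-4.07 ± 0.30, adjusted p = 9.54e-05). ASB5, an ankyrin repeat gene of the SOCS box family, read 7.62, 7.29 and 7.32 and then 2.97, 4.23 and 5.40 (-3.21 ± 0.59, adjusted p = 0.00529). In control cultures ASB5 changed by -0.46 and did not pass. The difference of -2.75 did not pass either, and ASB5 was picked by the size of its fall in Fk cultures.

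RGS2, a brake on G protein signalling, shows how far 1 array can carry a value. It read 7.40 and 7.24 on replicates 1 and 2 at 12 h, 11.02 on replicate 3, and 5.52, 5.79 and 5.39 at 48 h. The fall of -2.99 ± 0.91 (adjusted p = 0.0382) became -1.75 without replicate 3 (adjusted p = 0.049). The call also ended when any of 6 other arrays was left out, each array of Fk at 48 h and of control at 12 h, with adjusted p from 0.0551 to 0.102. TNFRSF19, a TNF receptor family gene, fell by 2.75 on the log2 scale (SE 0.65, adjusted p = 0.0151) and LRRN4, a leucine rich repeat gene, fell by 2.69 (SE 0.52, adjusted p = 0.0062). Without replicate 1 at 48 h TNFRSF19 no longer passed (-2.11, adjusted p = 0.0531).

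**Figure D3:**
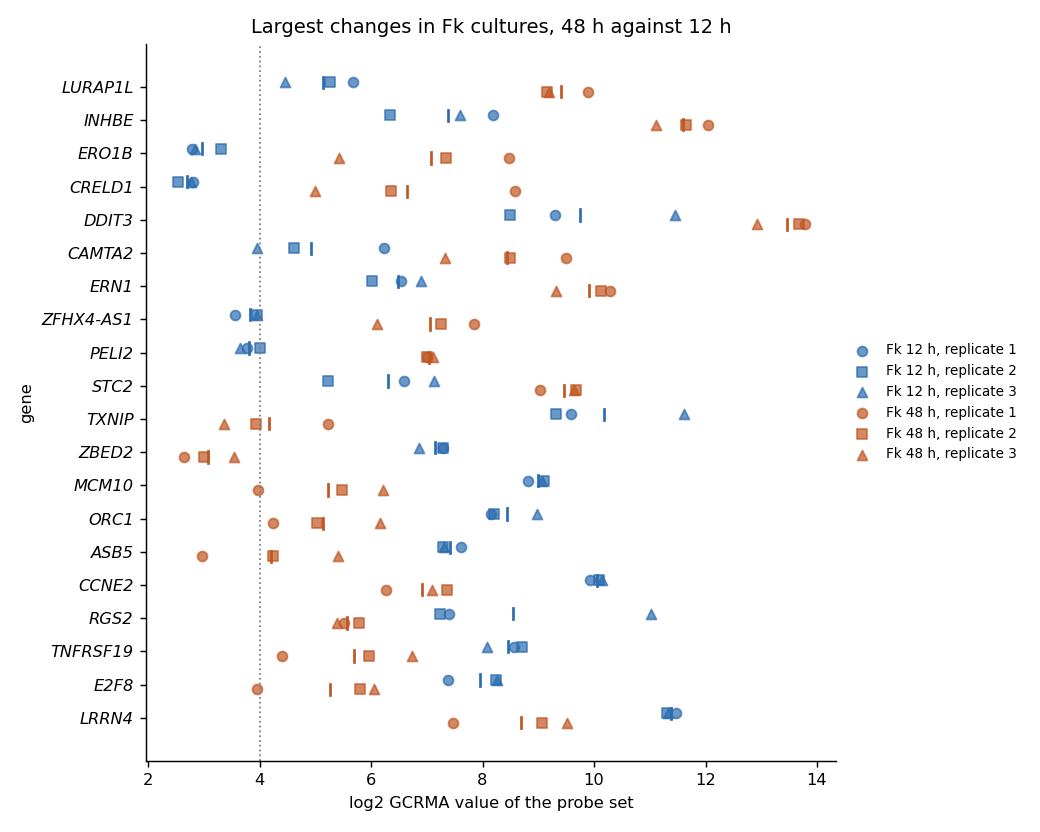
Log2 GCRMA value of the 10 genes with the largest rises and the 10 with the largest falls in Fk cultures, on each of the 3 arrays at 12 h (blue) and at 48 h (orange), with the group mean as a short vertical line. Marker shapes give the replicate number, the dotted line is the level of 4 used for testing, and overlapping symbols are shown in part. The genes were chosen among those whose arrays do not overlap. The triangle of replicate 3 at 12 h stands off for RGS2 at 11.02 and TXNIP at 11.61.

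The genes of DNA replication were lower at 48 h almost throughout. Of 45 tested members of the replication and G1/S list, 38 fell and none rose, against 11.7% of all genes falling. The median change was -1.36, against 0.02 over all genes. CCNE1 and CCNE2 encode the E cyclins that drive entry into S phase. CCNE1 fell from 7.78, 7.55 and 7.80 to 5.08, 5.08 and 5.77 (-2.40 ± 0.18, adjusted p = 9.54e-05), and CCNE2 from 9.93, 10.10 and 10.14 to 6.27, 7.35 and 7.09 (-3.15 ± 0.26, adjusted p = 1.48e-04). All 48 h arrays of both cyclins were below all 12 h arrays. CCNE2 was picked by that condition and CCNE1 by its adjusted p, so the separation adds no support. Of the 2050 genes that passed with and without replicate 3 at 12 h, 2001 had times that did not overlap.

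MCM10, which helps assemble the replication fork, read 8.82, 9.11 and 9.07 and then 3.97, 5.48 and 6.21 (-3.78 ± 0.50, adjusted p = 0.0012). Its other probe sets gave smaller falls, -1.75 and -2.47. POLA1, the catalytic subunit of the polymerase that primes replication, fell from 9.11, 9.13 and 8.76 to 7.59, 7.94 and 7.69 (-1.26 ± 0.16, adjusted p = 9.19e-04). ORC1, a subunit of the origin recognition complex, fell by 3.30 and E2F8, a repressor of the E2F family, by 2.69 on the log2 scale (adjusted p = 0.00597 and 0.0145). The 7 members that did not pass included DTL at -1.23, POLE at -1.04, E2F1 at -0.30 and CDC6, a licensing factor, at +0.10. CDC6 read 10.39, 10.23 and 9.64 at 12 h and 11.19, 10.51 and 8.86 at 48 h, so its times overlapped. The control cultures had 32 falls and a median of -1.10. The Fk count was 37 without replicate 3 at 12 h and 24 without replicate 1 at 48 h, the array with the lowest levels of the list.

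Mitotic genes moved in the same direction. Of 59 tested members of the mitosis and G2/M list, 49 fell, 1 rose and the median change was -1.32, with 41 falls and a median of -1.20 in control cultures. MYBL2, the B-MYB subunit that switches on mitotic genes, fell from 10.65, 10.48 and 10.50 to 8.24, 8.76 and 9.44 (-1.73 ± 0.28, adjusted p = 0.00305). FOXM1, its partner in that switch, fell from 9.01, 9.31 and 9.26 to 7.33, 7.93 and 7.95 (-1.46 ± 0.25, adjusted p = 0.00402). For both, replicate 1 at 48 h was the lowest array. The motor proteins CENPE, at kinetochores, and KIF4A, on chromosomes, fell by 1.76 and 1.61. The member that rose was CDC25B, a phosphatase that activates CDK1 (+0.63 ± 0.16, adjusted p = 0.0203), named after its value was seen, and no member rose without replicate 2 at 48 h. The count of falls was 24 without replicate 1 at 48 h, 28 without replicate 2 at 48 h and 35 without replicate 3 at 12 h, on which the list lay 0.40 above the other Fk arrays at 12 h.

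DNA repair genes, many of them active in S phase, had 14 falls and 1 rise among 25 members, with a median of -0.999 (12 falls in control cultures). EXO1, an exonuclease, fell from 9.12, 9.06 and 9.62 to 6.41, 7.07 and 7.02 (-2.44 ± 0.28, adjusted p = 6.76e-04). BRCA1 fell from 9.15, 9.36 and 8.68 to 7.84, 8.22 and 8.14 (-0.999 ± 0.176, adjusted p = 0.00433). RECQL4, a helicase, fell by 1.09. The kinase gene ATM was the member that rose (+0.54 ± 0.11, adjusted p = 0.00781). It was named after its value was seen. Of 5 replication-dependent histone genes, which are made in S phase, H2BC9 and H2BC12 fell, by 1.54 and 1.19, and 1 of the 5 rose without replicate 3 at 48 h. These arrays measured RNA from whole cultures, in which fewer dividing cells and less RNA per dividing cell cannot be told apart.

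The G1 regulators divided. Of 17 cyclin, CDK and CDK inhibitor genes, 5 rose and 3 fell. The CDK inhibitor gene CDKN1C (p57) rose from 7.13, 7.67 and 6.46 to 8.82, 8.94 and 9.07 (+1.86 ± 0.26, adjusted p = 0.00141), and CDKN1A (p21) from 10.67, 10.25 and 9.95 to 12.33, 11.71 and 11.87 (+1.68 ± 0.27, adjusted p = 0.00302). In control cultures both also rose, by +1.02 and +1.18. CCND3, a D cyclin, fell by 1.18 (SE 0.19, adjusted p = 0.00298) and CDK2, the partner of the E cyclins, by 1.35 (SE 0.27, adjusted p = 0.00715). CCND1, the main D cyclin of many epithelia, did not pass, at 9.89, 9.57 and 8.82 and then 6.30, 8.30 and 8.62. The count of rises was 3 without replicate 1 or 2 at 48 h, and that of falls 5 without replicate 3 at 12 h or replicate 3 at 48 h.

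Promoter sequences were read because members of these lists moved together. They are RefSeq windows of build GRCh38.p14, from 250 bases before to 50 after the start of a gene, and several windows can belong to a gene. The E2F motif was searched as TTTCCCGC or TTTGGCGC and the CHR motif, the cell cycle homology region of mitotic genes, as TTTGAA, on both strands. The E2F motif was present for 20 of 40 replication genes with a window (50%), against 750 of 27305 genes overall (2.75%), and the CHR motif for 37 of 51 mitotic genes (72.5%), against 4961 genes overall (18.2%). Among replication genes that fell, 16 of 33 held the E2F motif, and 4 of the other 7. Among mitotic genes that fell, 29 of 42 held the CHR motif, and 8 of the other 9. The members with a match before the start and the smallest adjusted p are shown with the motif in capitals, as upstream windows read 5′ to 3′ on the strand of the gene.
POLA1, chrX:24693741-24693828, plus strand: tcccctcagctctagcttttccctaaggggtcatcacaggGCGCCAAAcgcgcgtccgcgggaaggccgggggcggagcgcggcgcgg
KIF4A, chrX:70290030-70290103, plus strand: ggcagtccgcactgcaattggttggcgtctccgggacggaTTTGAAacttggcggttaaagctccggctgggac
A match describes letters in the window and does not show that a factor binds there. The lists group genes of known programmes, among them known targets of the factors whose motifs were searched. Here and below, a share above that of all genes can therefore follow from how a list was made up. It is not evidence from these arrays. The 27305 genes were not limited to the 10784 genes tested. In none of the windows printed here and below did the searched motif overlap another of the 7 motifs searched.

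Genes that ATF4 serves during amino acid stress rose as a group. Of 33 members 25 rose and none fell, against 11.5% of all genes rising, and all 33 changes were positive. The median was +1.40 in Fk cultures and +1.79 in control cultures, where 29 rose. TRIB3, a pseudokinase gene, rose from 11.92, 11.35 and 11.63 to 13.18, 13.41 and 13.09 (+1.59 ± 0.18, adjusted p = 6.76e-04). GDF15, a stress hormone gene, rose from 11.55, 10.58 and 9.98 to 13.48, 13.51 and 13.88 (+2.92 ± 0.35, adjusted p = 8.39e-04). DDIT4, an inhibitor of mTORC1, rose from 12.71, 12.64 and 12.16 to 13.50, 13.58 and 13.53 (+1.03 ± 0.15, adjusted p = 0.00215). None of these 3 genes had overlapping times, but they were picked by adjusted p, so the separation adds no support.

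Members that handle amino acids were among the rises. AARS1, which charges alanine onto its tRNA, rose from 10.02, 9.43 and 9.77 to 12.29, 11.66 and 11.07 (+1.93 ± 0.37, adjusted p = 0.00646). ASNS, the asparagine synthetase gene, rose from 10.74, 9.35 and 11.21 to 12.71, 12.65 and 12.20 (+2.09 ± 0.45, adjusted p = 0.0101). SLC7A11, the cystine importer, rose from 9.87, 7.86 and 8.25 to 11.55, 11.52 and 11.20 (+2.77 ± 0.50, adjusted p = 0.00466). PCK2, a mitochondrial enzyme that stands in the proximal tubule list and not in this one, rose by +1.81 ± 0.38 (adjusted p = 0.00918). The mRNA of ATF4 itself, much of whose control is by translation, did not pass (+0.66 ± 0.25, adjusted p = 0.0833). CHAC1, which breaks down glutathione, read 7.00, 5.13 and 8.76 at 12 h and 8.20, 8.17 and 8.14 at 48 h. Replicate 3 at 12 h was above every 48 h array, and CHAC1 passed without it (+2.11, adjusted p = 0.035). The count of rises was 26 without replicate 3 at 12 h, 16 without replicate 2 at 12 h or replicate 1 at 48 h, and 15 without replicate 2 at 48 h.

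The C/EBP-ATF response element, through which ATF4 acts, was searched as TGATGNAA on both strands. It was present for 10 of 27 members with a window (37%), against 1217 genes overall (4.46%), and for 7 of the 20 that rose and 3 of the other 7. The members with the smallest adjusted p and a match before the start were AARS1 and ASNS.
AARS1, chr16:70289646-70289733, minus strand: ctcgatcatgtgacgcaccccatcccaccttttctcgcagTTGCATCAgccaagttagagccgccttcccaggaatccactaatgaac
ASNS, chr7:97872429-97872516, minus strand: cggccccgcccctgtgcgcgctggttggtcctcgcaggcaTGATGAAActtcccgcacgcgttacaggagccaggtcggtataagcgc
On the AARS1 window the match lies on the opposite strand.

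The unfolded protein response split along the arrays at 48 h. Of 24 genes listed for the unfolded protein response and folding in the endoplasmic reticulum, 6 rose and none fell. Of the 24, 23 had a positive change, and the median was +1.20 (+1.45 and 9 rises in control cultures). Relative to their mean over all 12 arrays, the list's median read -0.32, -0.61 and -0.42 on the Fk arrays at 12 h and +1.59, +0.90 and -0.20 at 48 h. Replicates 1 and 2 at 48 h were thus far above the 12 h arrays, and replicate 3 only just above the highest of them. Control arrays at 48 h were arranged alike, at +1.52, +0.98 and -0.36. SDF2L1, a folding factor gene, read 8.72, 8.004 and 7.56 at 12 h and 12.22, 11.30 and 7.13 at 48 h and did not pass (+2.12, interval -0.94 to 5.18). HYOU1, a chaperone gene, read 9.65, 9.16 and 9.31 and then 12.56, 11.60 and 9.73, and did not pass either (adjusted p = 0.0916).

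HSPA5, the abundant chaperone BiP, read 14.47, 13.96 and 13.98 and then 15.59, 15.50 and 14.62 (+1.10 ± 0.35, adjusted p = 0.0465, and 0.091 without replicate 3 at 12 h). It was named after its value was seen. XBP1, whose mRNA is spliced by ERN1, rose from 10.48, 9.96 and 10.76 to 11.58, 11.60 and 11.15 (+1.04 ± 0.24, adjusted p = 0.0132), and did not pass without replicate 1 at 48 h (adjusted p = 0.0503). The count of 6 rises was 1 without replicate 1 at 48 h and 16 without replicate 3 at 48 h. It was 4 without replicate 3 at 12 h and 3 without replicate 1 or 2 at 12 h, replicate 2 at 48 h or any control array at 12 h, and 11 without replicate 3 of control at 48 h. The median was +0.79 without replicate 1 at 48 h and +1.74 without replicate 3 at 48 h. The endoplasmic reticulum stress response element, searched as CCAAT and CCACG with any 9 bases between them, on both strands, was present for 7 of 22 members with a window (31.8%) and for 25 of 27305 genes overall (0.0916%). It was present for 2 of the 6 members that rose and for 5 of the other 16. It is shown for the rising members that held it.
XBP1, chr22:28800570-28800661, minus strand: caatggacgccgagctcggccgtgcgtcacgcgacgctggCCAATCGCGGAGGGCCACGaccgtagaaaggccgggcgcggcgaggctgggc
HSPA5, chr9:125241351-125241449, minus strand: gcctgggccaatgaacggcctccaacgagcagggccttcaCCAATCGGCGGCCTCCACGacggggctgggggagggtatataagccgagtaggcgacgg

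**Figure D4:**
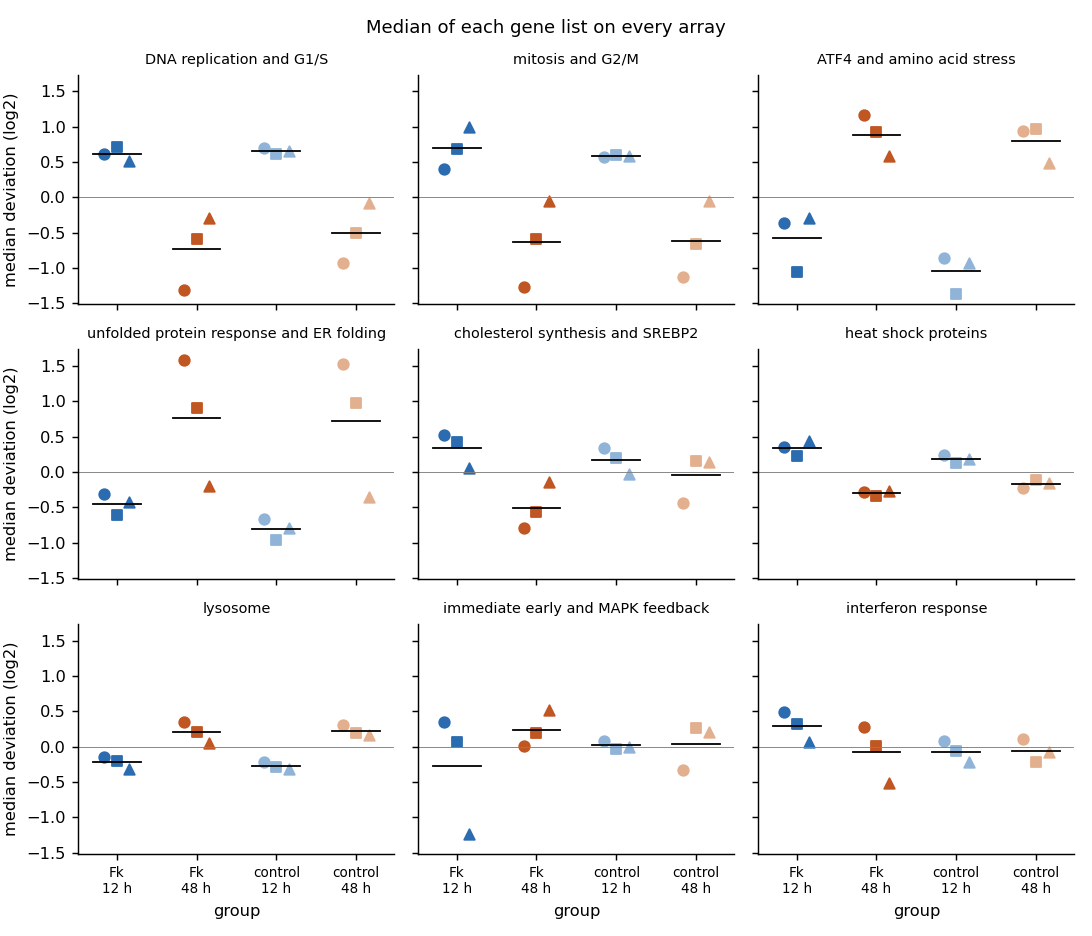
Median over the members of 9 gene lists of their deviation from the gene's own mean over all 12 arrays (vertical axis, log2), on each array of the 4 groups. Circles, squares and triangles are replicates 1, 2 and 3, and the line is the mean of the group. The unfolded protein response list reads +1.59, +0.90 and -0.20 on the Fk arrays at 48 h, and the immediate early list reads -1.23 on replicate 3 of Fk at 12 h.

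Beside the fall of TXNIP stood that of ARRDC4, an alpha-arrestin gene of the same family that is also induced by glucose through MondoA and ChREBP. ARRDC4 read 4.26, 4.15 and 6.91 at 12 h and 2.78, 2.76 and 2.78 at 48 h (-2.33 ± 0.57, adjusted p = 0.0169). The 48 h arrays were all under the level of 4, and without replicate 3 at 12 h, the highest array, the change was -1.43 (adjusted p = 2.3e-04). Without replicate 1 or 2 at 48 h it did not pass (adjusted p = 0.0518 and 0.0503). All 6 control arrays of ARRDC4 were under the level of 4 too, at 3.09 or less, so it was tested through its Fk arrays at 12 h alone and a fall in control cultures was not measurable. Of 19 genes in the list of FOXO, TXNIP and nutrient sensing, 4 rose and 2 fell, these being TXNIP and ARRDC4. FBXO32 and KLHL24, which FOXO factors raise, rose by +1.70 ± 0.25 and +2.33 ± 0.29 (adjusted p = 0.00198 and 9.19e-04). Their probe sets disagreed. Another probe set of FBXO32, nearly as bright, changed by +0.11, and the 3 others of KLHL24 with a mean above the level of 4 by -0.07, +0.46 and +0.35. With the mean of its probe sets KLHL24 stood at +0.78 and did not pass (adjusted p = 0.185), and FBXO32 at +0.43 passed (adjusted p = 0.0411).

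The carbohydrate response element, a pair of E boxes, was searched as CACGNG and CNCGNG with any 5 bases between them, on both strands. It was present for TXNIP alone of 18 list members with a window and for 169 genes overall (0.619%). Only this spelling was searched, and only in these windows. The lack of a match for ARRDC4 or another member therefore does not show that the gene lacks the element.
TXNIP, chr1:145996611-145996707, minus strand: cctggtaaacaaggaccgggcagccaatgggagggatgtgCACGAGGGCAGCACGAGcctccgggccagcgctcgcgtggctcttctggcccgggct

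Glucose uptake genes rose while most glycolytic enzymes did not pass. Of 20 glycolysis genes 6 rose and 1 fell, and the median was -0.07. SLC2A1, the main glucose transporter of many cells, rose from 7.83, 7.75 and 8.13 to 9.88, 9.85 and 10.11 (+2.04 ± 0.14, adjusted p = 9.48e-05). SLC2A3, another glucose transporter, rose from 8.77, 8.64 and 7.58 to 9.75, 10.15 and 10.74 (+1.89 ± 0.33, adjusted p = 0.00439). ENO2, an enolase, rose by +1.53 ± 0.24 and PDK1, a pyruvate dehydrogenase kinase, by +0.79 ± 0.16 (adjusted p = 0.00278 and 0.00854). GAPDH did not pass, at 15.28, 15.25 and 15.32 and then 15.34, 15.28 and 15.32, nor did LDHA, the lactate dehydrogenase gene, at -0.14. The member that fell, PKM, a pyruvate kinase gene, at -0.58, was named after its value was seen. No member fell without replicate 1 or 2 at 12 h, replicate 1 or 2 at 48 h, or control replicate 2 or 3 at 12 h, 2 fell without replicate 3 of either Fk group and 3 without control replicate 3 at 48 h.

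Hypoxia-inducible factor targets had 8 rises and 1 fall among 22 members, with a median of +0.81, or +0.60 without replicate 3 at 12 h, where 10 rose and 2 fell. VEGFA, the growth factor for vessels, rose from 10.44, 10.19 and 10.42 to 12.39, 12.25 and 12.18 (+1.92 ± 0.15, adjusted p = 9.54e-05). NDRG1, a stress gene, rose from 8.90, 8.52 and 8.65 to 11.88, 11.10 and 11.03 (+2.65 ± 0.30, adjusted p = 6.76e-04). STC2 and DDIT4 stand in this list too. The member that fell was ANGPTL4, an inhibitor of lipoprotein lipase, at 7.19, 6.69 and 6.34 and then 5.11, 4.96 and 3.82 (-2.11 ± 0.51, adjusted p = 0.016), which did not pass without replicate 1 at 12 h (adjusted p = 0.0519). Control cultures had 7 rises and 1 fall in the list, with a median of +0.53.

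Sterol synthesis genes were lower. Of 19 genes of cholesterol synthesis and SREBP2, the factor that switches them on, 10 fell and none rose, with a median of -0.88. In control cultures 1 fell and the median was -0.18, and the difference between the time changes was negative for 18 of the 19, with 0 passing. Without replicate 3 at 12 h it was negative for all 19, again with 0 passing. Over all genes tested the median difference was 0.01. Members of a list are not independent replicates, and the list was chosen with earlier results known. Its median deviation read -0.80, -0.57 and -0.15 on the Fk arrays at 48 h. On the control arrays at 48 h it read -0.43, +0.15 and +0.14, so the groups overlapped. A sterol fall particular to Fk was therefore not shown. EBP, a sterol isomerase, fell from 12.70, 12.49 and 12.41 to 10.29, 10.84 and 11.31 (-1.72 ± 0.27, adjusted p = 0.00254, with -1.57 on a probe set of like brightness and -0.70 on a dimmer one). NSDHL, a sterol dehydrogenase, fell from 10.31, 10.29 and 10.76 to 9.48, 9.37 and 9.23 (-1.09 ± 0.17, adjusted p = 0.00265). MVK, the mevalonate kinase gene, fell from 8.69, 8.46 and 9.02 to 6.84, 7.19 and 7.59 (-1.51 ± 0.32, adjusted p = 0.00912, with -0.97 and -0.98 on dimmer probe sets). MVK changed by -0.07 in control cultures. The difference of -1.44 did not pass, and MVK was picked by its adjusted p in Fk cultures. STARD4, a sterol carrier, did not pass, at 10.74, 10.37 and 8.27 and then 11.33, 11.19 and 10.63. The count of falls depended on single arrays. It was 12 without replicate 3 at 12 h, 3 without replicate 1 or 2 at 12 h or replicate 1 at 48 h, and 4 without replicate 2 at 48 h.

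Heat shock proteins, most of them chaperones of the cytosol and nucleus, were largely lower. Of 18 genes 10 fell and 1 rose, with a median of -0.87, or -0.53 without replicate 3 at 12 h, where 11 fell. DNAJA1, a co-chaperone, fell from 13.29, 13.29 and 13.40 to 12.20, 12.03 and 11.90 (-1.28 ± 0.11, adjusted p = 2.29e-04). DNAJB6 fell from 9.05, 8.83 and 9.89 to 7.58, 7.33 and 7.60 (-1.76 ± 0.24, adjusted p = 0.00128), DNAJB1 by 1.49 and HSPH1, a nucleotide exchange factor, by 1.01. For both DNAJA1 and DNAJB6 replicate 3 at 12 h was the highest array. The member that rose was HSPA9, the mitochondrial HSP70 (+0.96 ± 0.18, adjusted p = 0.00535), named after its value was seen, and 2 members rose without replicate 3 at 48 h. Control cultures had 8 falls and a median of -0.32. The heat shock element was searched on both strands as GAA, TTC and GAA, or TTC, GAA and TTC, each 2 bases from the next. It was present for 6 of 16 members with a window (37.5%), against 166 genes overall (0.608%). Of the 10 that fell 5 held it, and 1 of the other 6.
DNAJB6, chr7:157336833-157336925, plus strand: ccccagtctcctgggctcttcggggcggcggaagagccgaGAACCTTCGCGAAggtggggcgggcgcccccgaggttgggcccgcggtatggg

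Genes of the interferon response had 7 falls and no rise among 26 members, with a median of -0.33 and 1 fall in control cultures. OAS3, which makes the signal that activates RNase L, fell from 8.99, 8.87 and 8.10 to 6.13, 6.39 and 7.13 (-2.10 ± 0.32, adjusted p = 0.00217). IFIT1, which binds viral RNA, fell from 9.74, 9.90 and 8.75 to 7.46, 7.32 and 7.61 (-2.002 ± 0.384, adjusted p = 0.00621). IFI44 fell from 8.16, 8.06 and 8.34 to 5.44, 6.54 and 5.83 (-2.24 ± 0.48, adjusted p = 0.00969). The falls of these genes were -1.65, -1.14 and -0.87 in control cultures, where OAS3 alone passed. The count was 3 without replicate 1 at 12 h and 4 without replicate 2 at 12 h or replicate 2 at 48 h, and 1 member rose without replicate 3 at 48 h. The interferon-stimulated response element was searched as GAAA and GAAA with any 2 bases between them, on both strands. It was present for 15 of 22 members with a window (68.2%), against 1195 genes overall (4.38%). Of the 5 that fell and had a window 4 held it, and 11 of the other 17.
OAS3, chr12:112938291-112938380, plus strand: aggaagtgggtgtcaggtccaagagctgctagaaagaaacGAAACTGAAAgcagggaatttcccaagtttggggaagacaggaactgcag
IFIT1, chr10:89392467-89392556, plus strand: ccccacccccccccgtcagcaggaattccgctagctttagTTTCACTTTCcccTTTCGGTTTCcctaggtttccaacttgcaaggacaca
The IFIT1 window holds the element at 2 places, both on the opposite strand.

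Lysosomal genes had 12 rises and 1 fall among 34 members, against 11.5% of all genes rising and 11.7% falling. The median was +0.39, and control cultures had 12 rises and 1 fall too. SGSH, a sulfatase that degrades heparan sulfate, rose from 8.10, 7.71 and 7.54 to 9.15, 9.09 and 9.07 (+1.32 ± 0.16, adjusted p = 8.39e-04). NPC1, which exports cholesterol from lysosomes, rose from 11.38, 11.02 and 10.55 to 12.44, 12.49 and 12.45 (+1.48 ± 0.22, adjusted p = 0.00189). ATP6V0D2, a proton pump subunit, read 2.62, 2.63 and 2.64 at 12 h, under the level of 4, and 4.20, 5.32 and 5.45 at 48 h (+2.36 ± 0.33, adjusted p = 0.00145). All 6 control arrays of ATP6V0D2 were under the level of 4 as well, at 3.60 or less, so it was tested through its Fk arrays at 48 h alone and its change in control cultures was not measurable. The count of rises was 7 without replicate 1 at 48 h, and 2 genes fell without control replicate 3 at 48 h. Of 30 autophagy genes 6 rose and none fell, against the same shares of all genes. The rises included MAP1LC3B, which coats autophagosomes (+1.09 ± 0.22, adjusted p = 0.00742), and ATG2B, a lipid transfer gene (+1.33 ± 0.26, adjusted p = 0.00699). The other probe set of ATG2B with a mean above the level of 4 gave +0.22. The autophagy rises numbered 2 without replicate 2 at 12 h, replicate 1 at 48 h or replicate 2 at 48 h. They numbered 3 without control replicate 2 or 3 at 12 h or control replicate 2 at 48 h.

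Targets of p53 had 10 rises and 1 fall among 21 members, with a median of +0.59, and 5 rises and 2 falls in control cultures. Besides CDKN1A and GDF15, GADD45A, a growth arrest gene, rose from 10.32, 9.57 and 11.29 to 12.33, 12.45 and 12.16 (+1.92 ± 0.36, adjusted p = 0.00537). TP53I3, an oxidoreductase gene, fell from 8.60, 8.49 and 8.92 to 7.13, 7.27 and 6.79 (-1.61 ± 0.15, adjusted p = 3.35e-04). CDKN1A, GDF15 and GADD45A also stand among genes that other stresses raise, and the count of rises was 6 without replicate 2 at 48 h. That of falls was 2 without control replicate 3 at 48 h.

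The circadian list had 5 rises and no fall among 14 members. NFIL3, a repressor of the clock, read 9.13, 9.30 and 9.29 at 12 h and 11.69, 11.60 and 11.18 at 48 h (+2.25 ± 0.15, adjusted p = 7.1e-05). NR1D2 (REV-ERB beta) rose from 8.21, 8.11 and 7.95 to 9.59, 10.10 and 9.88 (+1.76 ± 0.20, adjusted p = 6.69e-04), and BHLHE41 (DEC2) from 8.04, 8.02 and 8.67 to 9.85, 10.07 and 9.73 (+1.64 ± 0.21, adjusted p = 0.00112). In control cultures NFIL3 rose by +2.12, NR1D2 by +1.96 and BHLHE41 by +2.37. The core clock gene BMAL1, at +0.35, did not pass. Samples were taken at 2 times only, so the phase of a rhythm cannot be read. The count of rises was 3 without replicate 1 at 12 h, replicate 1 or 2 at 48 h, or control replicate 1 or 3 at 12 h, and 1 member fell without replicate 3 at 12 h.

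**Figure D5:**
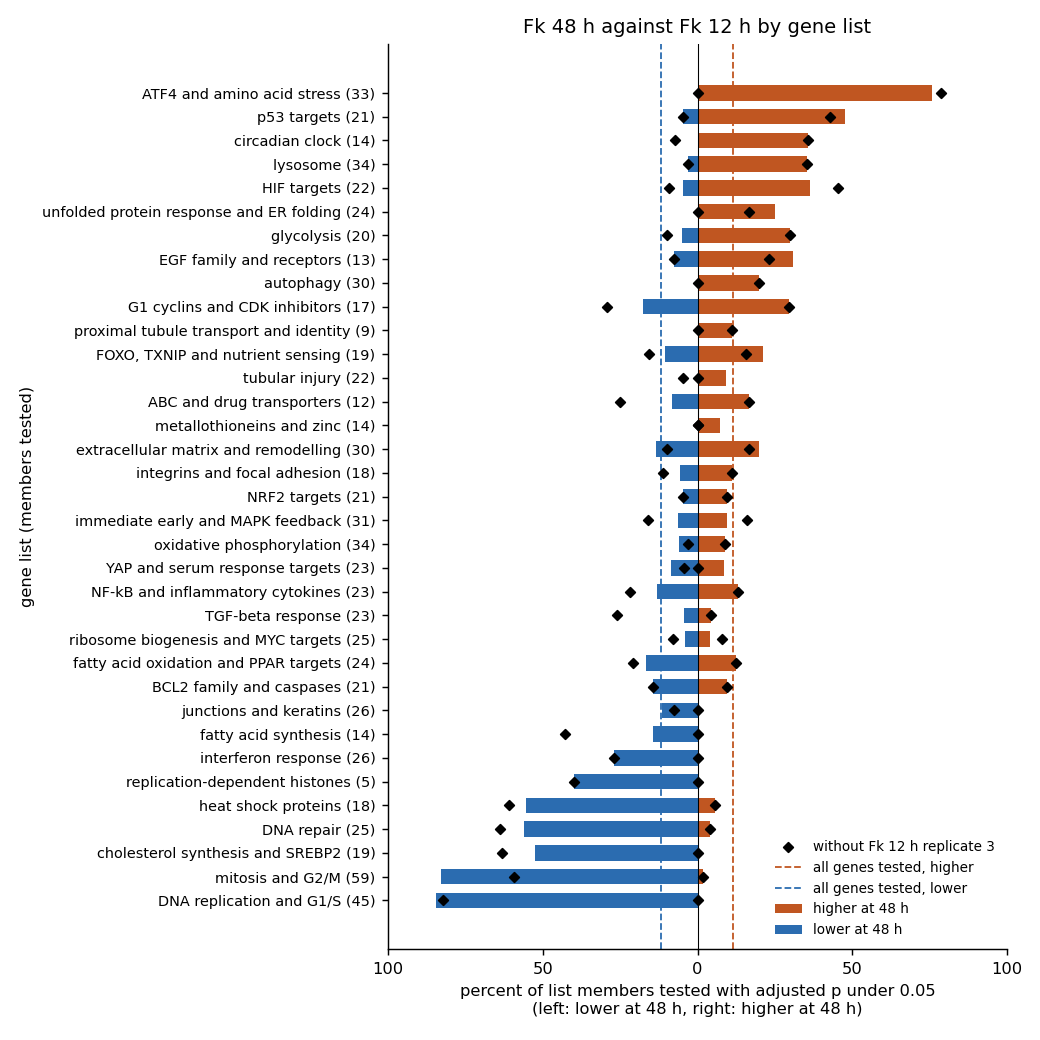
Percent of the tested members of each of 35 gene lists that passed an adjusted p of 0.05 between Fk at 48 h and Fk at 12 h, higher to the right and lower to the left, with the number tested in brackets. Diamonds give the same without replicate 3 at 12 h, and dashed lines give all genes tested, 11.5% higher and 11.7% lower. The ATF4 list (25 of 33 higher) and the replication list (38 of 45 lower) lie farthest out.

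Other lists lay near the shares of all genes or below them. Genes of oxidative phosphorylation had 3 rises and 2 falls among 34 members, with 1 rise without replicate 1 at 12 h, none without replicate 2 at 48 h, and 4 falls without replicate 3 of Fk or of control at 48 h. Ribosome biogenesis genes had 1 rise and 1 fall among 25, with no rise without replicate 1 or 2 at 48 h, 2 rises without any 1 of the 12 h arrays, and 2 falls without replicate 3 at 12 h. Fatty acid oxidation genes had 3 rises and 4 falls among 24, with PLIN2, which coats lipid droplets, at +1.22 ± 0.25 (adjusted p = 0.00751), with 1 rise without replicate 1 or 2 at 12 h or replicate 1 at 48 h, and 1 fall without replicate 2 at 48 h and 2 without replicate 1 at 12 h. Apoptosis genes of the BCL2 and caspase families had 2 rises and 3 falls among 21, with CASP2 at -1.06 ± 0.21 (adjusted p = 0.00695). The rises were 0 without replicate 2 at 48 h, 1 without replicate 2 at 12 h or replicate 1 at 48 h, and 4 without replicate 3 at 48 h. Among 12 drug transporters 2 rose, ABCC3 and ABCA2, and 1 fell, ABCB1. The call of ABCA2 ended when any of 4 arrays was left out, replicate 1 or 2 at 12 h or replicate 2 or 3 at 48 h. That of ABCB1 ended with any of 7, replicate 1 or 2 at 12 h, replicate 1 at 48 h, each control array at 12 h and control replicate 2 at 48 h. Without replicate 3 at 12 h, 3 transporters fell, and without replicate 3 at 48 h 2 did. The kidney injury list had 2 rises, ANXA1 and EREG, among 22 members, and neither passed without replicate 3 at 12 h. Its best known members did not pass: HAVCR1 (KIM-1) read 10.53, 10.83 and 9.78 and then 8.84, 10.01 and 10.38, at -0.64 (95% interval -1.54 to 0.26). NRF2 targets had 2 rises, SLC7A11 and ABCC3, and 1 fall, GCLM, among 21, and HMOX1 and NQO1 stood at +0.25 and +0.06. Of 14 metallothionein and zinc genes 1 rose, the zinc importer SLC39A14, and it did not pass without replicate 3 at 12 h. Junction and keratin genes had 3 falls among 26, JUP, KRT8 and CDH2, and of these JUP (plakoglobin) passed without that array, at -0.72. No junction gene rose with all arrays, and 4 did without replicate 3 at 48 h. Among 9 genes of proximal tubule transport and identity 1 rose, PCK2.

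Lists of matrix, growth factor and inflammatory genes leaned on single arrays. Extracellular matrix genes had 6 rises and 4 falls among 30 members. LAMB1, a laminin chain, stood at +1.06 ± 0.13 (adjusted p = 9.19e-04). COL1A1 stood at -0.87 ± 0.19 (adjusted p = 0.0104), with -0.10 and -0.68 on its dimmer probe sets with a mean above the level of 4. The 4 falls became 1 without replicate 1 and 2 without replicate 2 at 48 h. Integrin genes had 2 rises and 1 fall among 18. ITGA2, a collagen receptor, fell from 5.87, 5.76 and 5.41 to 3.07, 3.57 and 4.40 (-2.001 ± 0.312, adjusted p = 0.00257). TGF-beta response genes had 1 rise and 1 fall among 23, and 6 falls without replicate 3 at 12 h, on which the list lay 0.98 below the other arrays of the group. Fatty acid synthesis genes had 2 falls among 14, ELOVL6 and LPIN1, 6 falls without that array and none without replicate 1 or 2 at 12 h or replicate 1 at 48 h. YAP and serum response genes had 2 rises and 2 falls among 23, no rise without that array, and 6 falls without replicate 3 at 48 h. Genes of the EGF family and its receptors had 4 rises and 1 fall among 13. ADAM17, the protease that sheds EGF family ligands, rose by +1.07 ± 0.18 (adjusted p = 0.00317) and EGFR by +0.74 ± 0.19 (adjusted p = 0.0186), and the count of rises was 2 without replicate 2 at 48 h.

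The immediate early and MAPK feedback list, which mitogens raise within an hour, showed the outlying array most plainly. Of 31 members 3 rose and 2 fell, and the median was +0.57, while without replicate 3 at 12 h there were 5 of each and the median was +0.09. The list's median deviation read +0.34 and +0.07 on the other Fk arrays at 12 h, -1.23 on replicate 3, and +0.01, +0.20 and +0.52 at 48 h. No rise was left without replicate 1 or 2 at 48 h, and 1 without control replicate 1 or 3 at 12 h or control replicate 2 at 48 h. The NF-kB and inflammatory list had 3 rises and 3 falls among 23 members, 5 falls without that array, and 1 rise and no fall without replicate 2 at 48 h. CFB, a complement gene, rose by +2.07 ± 0.33 (adjusted p = 0.00305) on its brighter probe set and changed by +0.03 on the other, which did not pass (adjusted p = 0.885). CXCL8, a neutrophil chemokine gene of that list, read 12.90, 12.73 and 8.39 and then 12.99, 13.03 and 13.91, and its change of +1.97 (adjusted p = 0.16) became +0.49 without that array. SOX9, a repair factor of the tubule, read 9.62, 10.10 and 5.70 and then 5.80, 6.55 and 7.84, at -1.75 with all arrays (adjusted p = 0.204) and -3.13 without that array (adjusted p = 0.0024).

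The last question was where the change over time differed between Fk and control cultures. No gene passed, so the genes with the smallest p in each direction are given as values. SLC2A1 had +2.04 in Fk and +0.91 in control cultures, a difference of +1.14 (unadjusted p = 1.9e-04). LHX6, a homeobox gene, stood at +0.40 and -0.85, and AXIN1, a scaffold of the Wnt pathway, at +0.92 and +0.11. In the other direction MTERF2, a mitochondrial gene of the transcription termination factor family, stood at -1.23 and -0.20, JUP at -0.68 and +0.11, and WFDC21P at +0.14 and +1.36. Without replicate 3 at 12 h the negative genes were ARRDC4, ANKRA2 and CASKIN2, of which ARRDC4 had no measurable level in control cultures, so its difference is not a comparison of measured changes. ANKRA2 read 6.32, 6.46 and 9.01 at 12 h and 7.99, 7.66 and 7.57 at 48 h, and its Fk change of +0.48 became +1.35 (adjusted p = 0.0011) without that array.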

How the data were processed

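Total RNA was hybridised as labelled cRNA to Affymetrix expression arrays, 1 colour and 1 array per culture, 3 arrays in each of 4 groups. The deposited table holds log2 values of 54675 probe sets on 12 arrays, which the authors made with GCRMA per the submitters' processing notes. GCRMA corrects background by probe sequence and normalises the arrays together, so low values are compressed near 2 to 3 and no detection calls or read depth go with them. The number of arrays limits the precision.

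Probe sets were named through the platform's annotation, with 41097 naming 1 gene, 1801 several and 11777 none. For each of 19775 genes the probe set with the highest mean over the 12 arrays was kept, and 10784 genes with a value of at least 4 on at least 3 arrays were tested. Limma 3.58.1 in R 4.3.3 fitted 4 group means with moderated variances, on 8 residual degrees of freedom and 2.44 from the prior. Tests were two-sided, p-values were adjusted by Benjamini and Hochberg's method across the 10784 genes, and 0.05 was the threshold. Calculations were tested on simulated data.

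The gene lists, the comparison and the members were chosen with earlier results of these data known. Named genes are the 10 largest rises and falls that passed with and without replicate 3 of Fk at 12 h and whose arrays did not overlap, up to 4 passing members of each of 35 lists by adjusted p, the 3 smallest p in each direction for the difference between time changes, members said not to pass, and genes said to be named after their values were seen. Promoters came from RefSeq (GRCh38.p14). The 26 alternatives covered the dim filter, probe set choice, normalization, moderation, array weights, replicate number as a block, arrays in the fit, thresholds and leaving out each array.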

Additional observations from a re-analysis of the deposited data

How the results depend on the processing

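The number of genes past the threshold, 2500 in Fk and 2314 in control cultures, kept within 1.5 times under the dim filters, probe set choices, quantile normalization, median centring and robust moderation, and the difference between time changes gave 0 in each of these. Array weights gave 7048, 5430 and 620 for Fk, control and the difference, with a weight of 21.6 for replicate 2 of Fk at 48 h and 0.0947 for replicate 3 of Fk at 12 h. The labels' replicate numbers were not taken to pair the arrays, since not every same-numbered pair deviated together: Fk at 12 h with Fk at 48 h correlated at -0.0820, 0.00585 and -0.139, and Fk with control at 48 h at 0.798, -0.0250 and 0.606. The replicate number as a block gave 2778 genes in Fk, 2589 in control and 0 for the difference, and as a block without replicate 3 of Fk at 12 h 3813, 4019 and 0. Fitting only the groups compared gave 831 in Fk, and 1326 without replicate 3 at 12 h. Leaving out 1 array gave 1297 to 2787 in Fk, lowest without replicate 1 at 48 h, and 1060 to 3438 in control, lowest without control replicate 3 at 12 h. An adjusted p of 0.01 left 874 and 768, and a change of at least 1 log2 unit left 1072 and 941. Of the passing genes in Fk, 49.6% were higher, and 45.3% under quantile normalization. Of 2977 values recomputed for Fk changes that passed, none turned direction and 307 lost their call (CDC6, which did not pass, stood at +0.10 and at -0.12 without replicate 3 of Fk at 12 h), and 98 of 840 list medians moved by more than the spread between arrays. For the difference between time changes, CASKIN2 turned to +0.17 without probe sets that can match several transcripts or genes, and 9 values passed, all under array weights.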
